A study of Mus musculus with 18 samples.

Results

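The cytosolic ribosomal protein genes were followed in granulosa cells of the mouse ovary through the hours before ovulation. They were chosen by name: every entry called Rpl or Rps followed by a number, with or without a final a, l, x or y, and the stalk genes Rplp0, Rplp1 and Rplp2, without pseudogenes. The rule found 79 of the 41325 entries of the deposited count table, 49 of them named Rpl for the large subunit and 30 named Rps for the small subunit. Of the 79, 75 encode core proteins of the ribosome, 29 of the small and 46 of the large subunit, and 4 are paralogs with a name ending in l (Rpl3l, Rpl10l, Rpl39l and Rps27l). The low-count filter kept 77 of them, and Rpl3l and Rpl10l did not pass it.

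The study sequenced polyadenylated RNA of cumulus cells, which surround the oocyte, and of mural granulosa cells, which line the follicle wall. Wild-type (WT) mice were sampled at 0, 4 and 12 h after human chorionic gonadotropin (hCG), which acts in place of the ovulatory surge of luteinizing hormone, and each cell type and time had 3 libraries, 18 in all. All 6 groups were thus hCG-labelled WT ovary, with the 0 h groups as the baseline of each cell type. The labels used here do not give strain, age, number of animals, any priming before hCG or pooling of cells.

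Ribosomal proteins fold onto ribosomal RNA in the nucleolus to make a small subunit, which reads the messenger RNA, and a large subunit, which joins amino acids. Their messenger RNAs start with a cytosine and a run of pyrimidines, the 5′ terminal oligopyrimidine (TOP) motif, through which mTORC1, Larp1 and the 4E-binding proteins control their translation, so that a messenger level does not give a rate of protein synthesis. Around hCG, mural cells begin luteinization, and cumulus cells secrete the hyaluronan matrix of the expanding cumulus.

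Start-site sequences are shown because the TOP run is the feature that core members share and the naming rule did not use. Of the members, 59 matched a promoter window in RefSeq (GRCm38.p6). A C followed by 7 or more C or T bases on the sense strand, from 50 bases before to 50 after the annotated start, was present in 51 of these 59 (86.4%), beside 32.5% of 17433 other genes and 29.2% of all 21263 windows. The more specific run CTCTTTCC in the same window was present in 7 of 59 members (11.9%) and 0.505% of other genes, and it can lie inside a run of the first kind. The ETS-type motif CCGGAAGT, or ACTTCCGG on the other strand, was found in 11 of 59 (18.6%) and in 5.64% of other genes over the whole 300 bases. These matches are letters in a window and not measured sites. The lines below give 50 bases each, 30 before and 20 from the annotated start, 5′ to 3′ on the gene's strand, with the longest run of C and T that begins with C in capitals, or both runs where 2 have that length.
Rps6: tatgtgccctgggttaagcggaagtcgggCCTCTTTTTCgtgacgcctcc
Rpl28: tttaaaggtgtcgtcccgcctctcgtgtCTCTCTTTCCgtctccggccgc
Rps18: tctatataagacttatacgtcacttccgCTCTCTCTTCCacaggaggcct
Rplp2: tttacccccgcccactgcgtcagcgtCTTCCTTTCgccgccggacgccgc
Rps12: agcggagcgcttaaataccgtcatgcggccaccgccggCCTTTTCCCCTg
Rpl27: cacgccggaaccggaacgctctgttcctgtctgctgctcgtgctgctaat
Rps27l: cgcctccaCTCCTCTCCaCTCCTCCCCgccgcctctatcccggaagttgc
Rpl39l: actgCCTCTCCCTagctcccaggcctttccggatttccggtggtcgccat

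In Rps6 (chr4:86857348-86857397, minus strand) the run began 1 base before the annotated start, and in Rpl28 (chr7:4792935-4792984, plus) and Rps18 (chr17:33955646-33955695, minus) it began 2 bases before. In Rplp2 (chr7:141447621-141447670, plus) it began 4 bases before the start. Rps12 (chr10:23787190-23787239, minus) held its run from base 9 on, with the annotated start as base 1. Rpl27 (chr11:101442215-101442264, plus) held no run of 5 or more bases in these 50. GENCODE begins these genes elsewhere, Rpl27 at base 101442298, downstream of this window, and Rps12 at base 23787275, upstream of it. Its gene starts for Rps6, Rpl28, Rps18 and Rplp2 also lie outside their windows. The place or lack of a run thus holds for the RefSeq start only. The paralogs had runs of 9 bases that lay farther upstream. Rps27l (chr9:66946056-66946105, plus, the window of 1 of 2 starts listed) held 2 of them, 22 and 12 bases before the start, and Rpl39l held 1 that began 26 bases before it (chr16:10170198-10170247, plus).

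The libraries held 32211630 to 47919446 counted reads. They were grouped by their titles. The separate cell-type entry reads mural for 8 of the 9 libraries titled cumulus and is missing for the other. In the counts, the libraries titled cumulus had far less Lhcgr, the receptor for luteinizing hormone, than the mural ones at 0 h (log2 difference −6.29 ± 0.50, SE, adjusted p = 3.2e-08, edgeR's quasi-likelihood test), and all 3 mural markers were lower in them. Of the cumulus markers, Npr2 was called higher (0.60 ± 0.16, adjusted p = 0.0063), and Slc38a3 (−0.30 ± 0.28) and Amh (0.02) were not called.

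Levels are given in CPM, counts scaled to a common library size after correction by TMM (trimmed mean of M-values), whose factors ran from 0.849 to 1.177. Oocyte transcripts stood out in the cumulus libraries: the summed level of 15 oocyte markers was 421, 2000 and 2090 CPM at 0 h, 2370, 1220 and 7600 CPM at 4 h and 5.76 to 10.8 CPM at 12 h, beside 136 to 643 CPM in mural libraries. Zp1 and Figla were at 0 in the cumulus libraries of 12 h. Transcripts of the mitochondrial genome took 12.8% of the counts of cumulus 0 h replicate 1 and 8.49% and 8.5% of the other replicates of that group. Cumulus 0 h replicate 1 and cumulus 4 h replicate 3, with its high oocyte sum, therefore stand apart from their groups, and counts of called members at 4 h are given with and without them. P-values measure only the spread between these libraries, which may be technical.

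Across the series, cumulus cells put more of their reads into core ribosomal protein genes than mural cells did at each time, and the excess was smaller at 12 h than at 0 h. In cumulus cells the 75 core genes took 4.54%, 4.34% and 4.17% of all counts at 0 h, 3.55%, 3.86% and 2.81% at 4 h, while the 12 h libraries gave 2.70%, 2.58% and 2.73%. In mural cells they took 1.90%, 1.85% and 1.88% at 0 h, 1.87%, 2% and 1.88% at 4 h, while the 12 h libraries gave 1.99%, 1.86% and 1.80%. The cumulus groups did not overlap each other or the mural groups, and the mural groups overlapped each other. The mean share in cumulus cells was 2.32 times that in mural cells at 0 h, 1.77 times at 4 h and 1.42 times at 12 h. Within cumulus cells the 4 h share was 0.783 times and the 12 h share 0.613 times the 0 h share, and within mural cells these ratios were 1.02 and 1. Without both libraries that stand apart, the mean share in cumulus cells was 4.26% at 0 h and 3.70% at 4 h, the 4 h share was 0.870 times the 0 h share, and cumulus cells had 2.27 times the mural share at 0 h and 1.93 times at 4 h. These shares describe chosen members and carry no test. In bulk RNA, fewer cells of a type and less of its RNA per cell cannot be told apart.

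**Figure D1:**
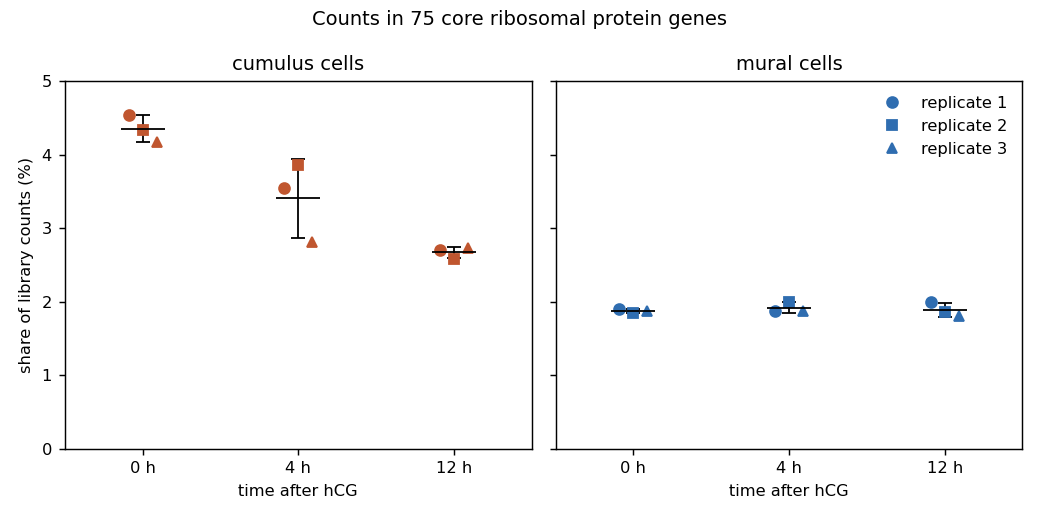
Share of each library's counts that fell in the 75 core ribosomal protein genes (percent, vertical axis from 0) by time after hCG, for cumulus cells on the left and mural cells on the right, with points for libraries and bars for the group mean and SD (n = 3). Cumulus means were 4.35%, 3.40% and 2.67% at 0, 4 and 12 h, and mural means lay between 1.88% and 1.92%.

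Over all comparisons, scaling by library totals in place of TMM moved the median of all genes by −0.32 to 0.18 (log2). The distance of the core median from it moved by at most 0.01. A change of scaling shifts every gene of a comparison by nearly the same amount. This distance is thus nearly fixed in advance and is no check of the result.

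Small- and large-subunit genes moved together. The ratio of small- to large-subunit counts lay between 0.558 and 0.570 in the 9 cumulus libraries and between 0.541 and 0.555 in the 9 mural libraries, so that cumulus libraries had a slightly higher ratio with no overlap. Per kilobase of transcript and averaged over all libraries, the most abundant core members were Rps14 (920 CPM per kb), Rpl23a (914 CPM per kb) and Rpl41 (912 CPM per kb), and the least abundant were Rpl27 (51.0 CPM per kb), Rps12 (45.4 CPM per kb) and Rps27 (13.3 CPM per kb). The deposited values are unique gene reads, and ribosomal protein genes have many processed pseudogenes. A median of 57.4% of a member's 50-base windows also occurred in another annotated gene, 49 of 79 members shared at least 50% of them, and the shares for the 3 low members were 64.1% in Rpl27, 90.1% in Rps12 and 98.6% in Rps27. Over all core members the median level was 472 CPM per kb in the 49 that shared at least 50% and 469 CPM per kb in the 4 that shared under 10%. Levels of such genes are uncertain where the counting could split reads with a copy. Another annotated gene overlapped 21 members on the opposite strand and 32 on the same strand. How the counting treated strand is not given in the sources used here.

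**Figure D2:**
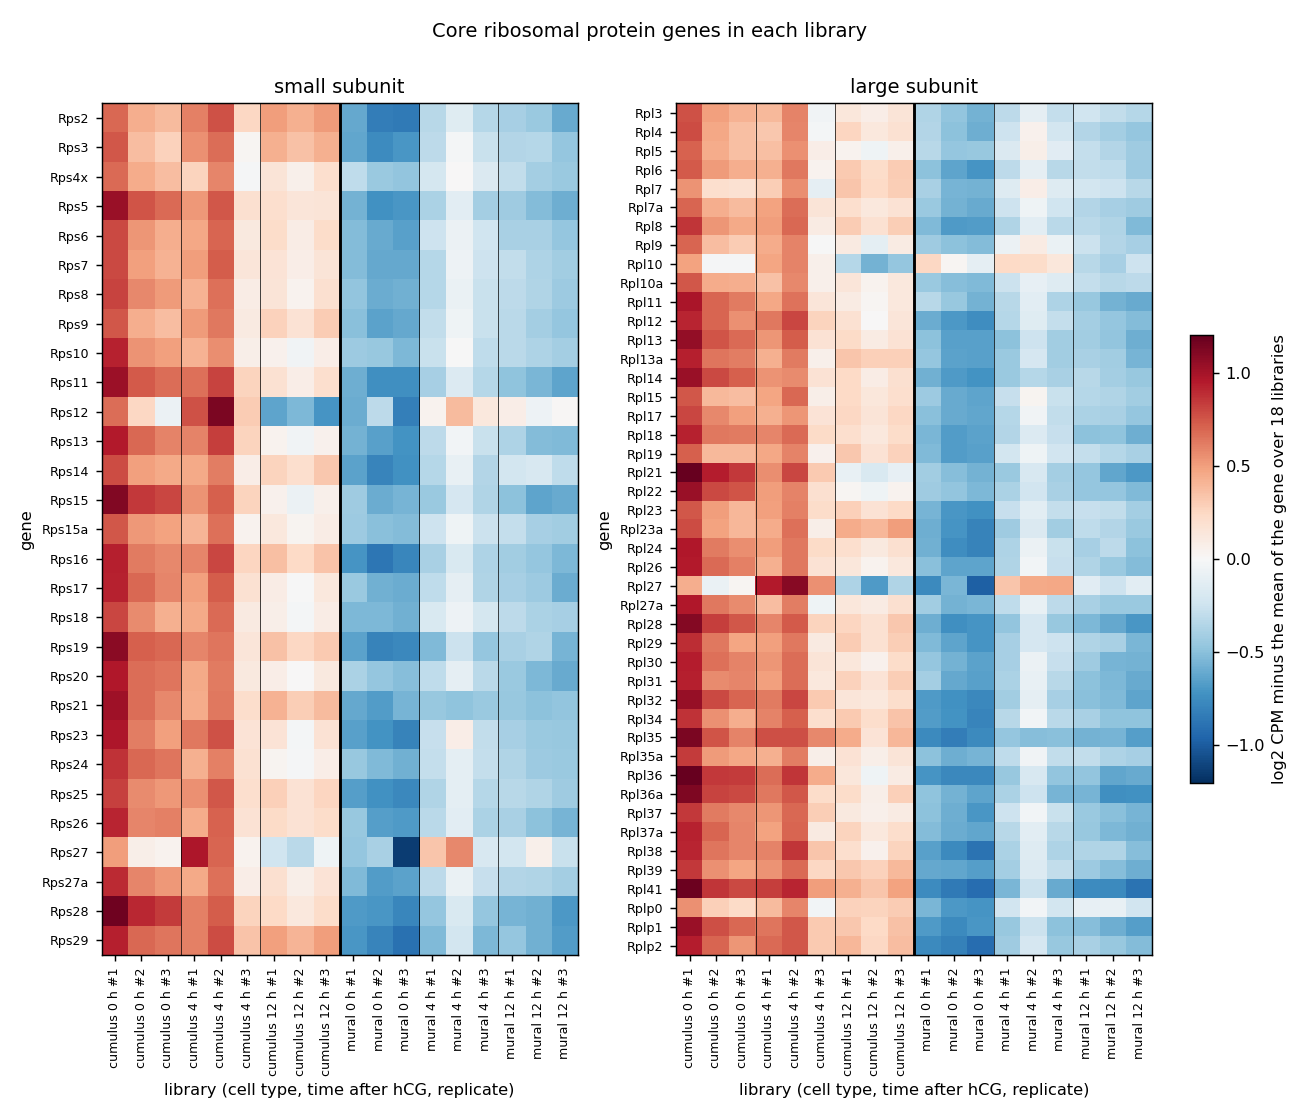
Heat maps of 74 of the core ribosomal protein genes (down the page) in the 18 libraries (across, cumulus left of mural, each at 0, 4 and 12 h), small and large subunit in separate panels, coloured by log2 CPM minus that gene's mean over all libraries. Nearly the whole block is higher in cumulus libraries at 0 h, and the rows of Rpl10, Rpl27, Rps12 and Rps27 break the pattern.

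Before hCG, cumulus cells had higher levels of nearly every ribosomal protein messenger than mural cells. In cumulus against mural cells at 0 h, 76 of 77 members tested were higher and none was lower, beside 21.5% of all genes higher and 25.3% lower (adjusted p under 0.05, quasi-likelihood F test of edgeR, Benjamini-Hochberg adjusted over 19941 genes). The median log2 difference over the members was 1.29, beside −0.03 over all genes. All 29 small-subunit and 45 of 46 large-subunit core genes were called, and Rpl10 was the exception. Leaving out any 1 library of these groups left 75 members called, and scaling by library totals left 76.

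Rpl41, a very short basic peptide of the large subunit, differed most among the core genes. It had 794, 636 and 608 CPM in cumulus cells, against 207, 195 and 186 CPM in mural cells at 0 h. The groups lay far apart, with every cumulus library above every mural one (log2 difference 1.80 ± 0.13, adjusted p = 1e-08). Rpl36 of the large subunit had 382, 293 and 291 CPM in cumulus cells, against 99.6, 95.5 and 95.6 CPM in mural cells (1.73 ± 0.13, adjusted p = 9.84e-09). Rps28, a small-subunit protein near the messenger RNA channel, had 468, 390 and 372 CPM in cumulus cells, against 130, 128 and 121 CPM in mural cells (1.70 ± 0.12). In both genes the groups did not overlap, and cumulus replicate 1, the library with the high mitochondrial share, was the highest.

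Proteins with separate roles showed the same direction at 0 h. Rps6, the small-subunit protein phosphorylated downstream of mTORC1, had 864, 721 and 676 CPM in cumulus cells, against 347, 328 and 318 CPM in mural cells (1.19 ± 0.13, adjusted p = 9.97e-07). Rpl5 and Rpl11, which with 5S ribosomal RNA form the particle that can bind Mdm2, were higher in cumulus cells by 0.93 ± 0.12 and 1.23 ± 0.13 on the log2 scale. The stalk proteins Rplp0, Rplp1 and Rplp2, which recruit elongation factors, were higher by 1 ± 0.14, 1.55 ± 0.12 and 1.56 ± 0.12. All 7 exit-tunnel genes and all 4 genes around the messenger RNA channel were called higher, beside 98.7% of members and 21.5% of all genes. Rpl35 of the exit tunnel was higher by 1.63. All 9 genes listed for Diamond-Blackfan anaemia, a human disorder of red cell production caused by mutations in ribosomal protein genes, were higher, with Rps19 at 666, 518 and 505 CPM in cumulus cells, against 201, 180 and 184 CPM in mural cells (1.58 ± 0.13). The X-linked genes Rps4x (0.90 ± 0.13) and Rpl36a (1.47 ± 0.13) and the ubiquitin fusion gene Rps27a (1.29 ± 0.13) were higher as well.

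Rpl10, the large-subunit protein that joins last and helps the subunits meet, was not called different at 0 h. It had 68.6, 48.6 and 48.7 CPM in cumulus cells, against 58.6, 50 and 45.6 CPM in mural cells, and the groups overlapped (0.11 ± 0.14, adjusted p = 0.575). Rpl10 (chrX:74270812-74273135, plus strand, GRCm38) shared 92.1% of its 50-base windows with 15 other annotated genes. The other cell types' markers also differed at 0 h. Of 15 oocyte markers 14 were higher in cumulus cells, of 6 erythroid markers 5 were lower, of 4 theca markers all were lower, and of 28 genes of the mitochondrial genome 18 were higher. The part of these cells' RNA in the difference was not tested.

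**Figure D3:**
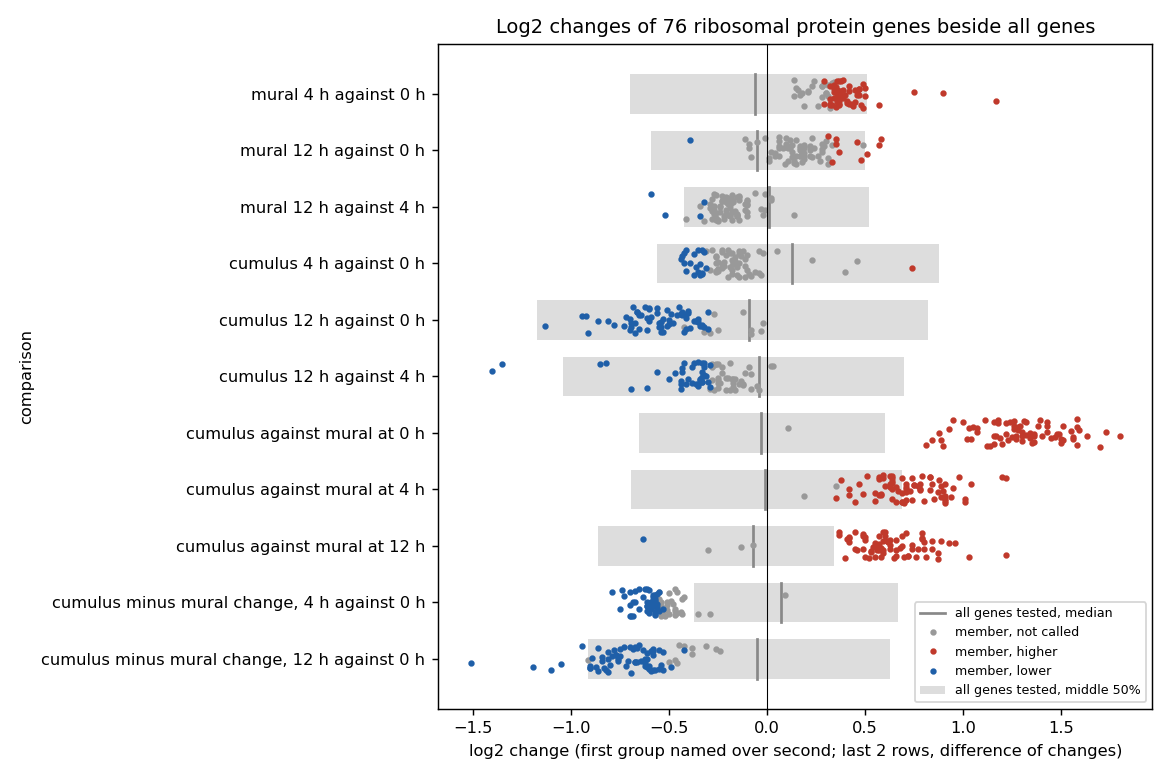
Log2 change (horizontal axis) of 76 ribosomal protein genes in each comparison (down the page), each point a gene, with the median and middle range of all 19941 genes tested beside them; Rpl39l lies off the scale and is left out. The members' cloud sits to the right in cumulus against mural cells, to the left in cumulus cells at 12 h against 0 h, and close to 0 in mural cells at 12 h against 0 h; the rise in mural cells at 4 h is near 0 under scaling by library totals.

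At 4 h and 12 h most members were still higher in cumulus cells, by less. In cumulus against mural cells at 4 h, 75 of 77 members were higher and none was lower, beside 27.6% of all genes higher and 27% lower, with a median of 0.71. The count at 4 h was 68 to 77 with 1 library left out and 76 without both libraries that stand apart. At 12 h, 72 members were higher and 2 were lower, beside 18% of all genes higher and 20.5% lower, with a median of 0.59 (0.47 over the core genes under scaling by library totals, where the higher share of all called genes was 35.6% in place of 46.7%). Rpl41 again differed most among the core genes, by 1.22 ± 0.13 at both times (adjusted p = 7.52e-07 at 4 h and 9.38e-07 at 12 h). At 12 h it had 472, 442 and 488 CPM in cumulus cells, against 208, 206 and 190 CPM in mural cells, with no overlap. Rps29, a zinc-binding protein of the small subunit, was higher by 1.03 ± 0.12 and Rps2, at the messenger RNA entry, by 0.96 ± 0.13 in cumulus cells at 12 h. Rps12 of the small subunit went the other way at 12 h, with 13.5, 14.4 and 12.8 CPM in cumulus cells, against 22.1, 20.1 and 21.1 CPM in mural cells (−0.63 ± 0.20, adjusted p = 0.0176), a call that was lost in 3 of 6 fits with a library left out. The other member lower in cumulus cells at 12 h was the paralog Rpl39l, whose call was lost in 5 of those fits.

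In cumulus cells, ribosomal protein messengers fell by 12 h. In cumulus cells at 12 h against 0 h, 67 of 77 members were lower and none was higher, beside 32.9% of all genes lower and 31.2% higher. The median was −0.51, beside −0.09 over all genes, and the subunits were alike, with 25 of 29 small-subunit genes (median −0.51) and 40 of 46 large-subunit genes (median −0.52) lower. Between 50 and 71 members were called when 1 library was left out, the fewest without cumulus 0 h replicate 1, and 63 were called without both libraries that stand apart. Scaling by library totals gave 77 lower, with 38.1% in place of 48.7% of all called genes on the higher side. It moved the median of all genes to −0.34. The core genes' distance from that median, which a change of scaling can hardly move, was −0.41 (−0.42 with TMM).

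Rpl21, a large-subunit protein, fell most among the core genes. It had 199, 186 and 197 CPM at 12 h, against 492, 405 and 379 CPM at 0 h in cumulus cells. The groups did not overlap and the 12 h libraries were close to each other (−1.13 ± 0.12, adjusted p = 3.59e-07). Rps12 had 13.5, 14.4 and 12.8 CPM at 12 h, against 33.4, 24.9 and 19.9 CPM at 0 h, with no overlap, although the 0 h libraries were spread widely (−0.94 ± 0.20, adjusted p = 0.000505). Rpl36 had 179, 157 and 174 CPM at 12 h, against 382, 293 and 291 CPM at 0 h (−0.92 ± 0.12, adjusted p = 4.03e-06). Rpl22, an RNA-binding protein of the large subunit with a known tie to lymphocyte development, had 194, 184 and 196 CPM at 12 h, against 390, 329 and 321 CPM at 0 h (−0.86 ± 0.11, adjusted p = 1.49e-06). Neither gene had groups that overlapped.

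In cumulus cells at 12 h against 0 h, 87% of the members tested were lower, beside 32.9% of all genes. By role, the falls had exceptions in the stalk, the exit tunnel and around the channel, in lists too short to set against these shares. All 9 Diamond-Blackfan genes were lower (median −0.54), with Rps24 at −0.70 ± 0.11. Rpl5 (−0.49 ± 0.12) and Rpl11 (−0.69 ± 0.13) were both lower. Of 7 exit-tunnel genes 5 were lower. Of 4 channel genes 2 were lower, Rps28 by 0.78, while Rps2 (−0.03) and Rps3 (−0.08) were not called. Rplp1 (−0.53 ± 0.12) and Rplp2 (−0.39 ± 0.12) fell, whereas Rplp0, their anchor on the ribosome, had 1310, 1300 and 1340 CPM at 12 h, against 1580, 1320 and 1270 CPM at 0 h, with groups that overlapped (−0.08 ± 0.14, adjusted p = 0.64). Other members not called were Rpl7 (−0.02 ± 0.14), Rpl23a (−0.12), Rpl19 (−0.25), Rps9 (−0.27), Rpl6 (−0.29), Rpl15 (−0.32) and Rps27 (−0.42 ± 0.27). Among the fits with 1 library left out, the calls of Rplp2, Rps6, Rpl3, Rpl39, Rps4x, Rps27l and Rps29 were lost at least once.

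Other transcripts moved alongside. Between 0 h and 12 h in cumulus cells all 15 oocyte markers were lower, 22 of 28 mitochondrially encoded genes were lower, and all 8 granulosa markers were lower. Markers of endothelium and leukocytes did not move one way. The endothelial sum was 163 to 200 CPM at 12 h, against 8.30 to 14.5 CPM at 0 h, with Cdh5 (5.36 ± 0.21) and Kdr (5.68 ± 0.43) higher and Pecam1 lower (−1.47 ± 0.53, adjusted p = 0.0211). The leukocyte sum was 33.3 to 36.5 CPM at 12 h, against 2.87 to 13.2 CPM at 0 h, with Cd52 higher (6.21 ± 0.33), Lyz2 lower (−1.31 ± 0.44, adjusted p = 0.0157) and Ptprc not called (−0.41 ± 0.49). The part of these transcripts in the fall was not tested. With mitochondrially encoded genes left out of the totals, the mean core share at 0 h in cumulus cells was 4.84%.

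At 4 h the change in cumulus cells was smaller and rested on particular libraries. In cumulus cells at 4 h against 0 h, 19 members were lower and 1 was higher, beside 22.8% of all genes lower and 25% higher, with a median of −0.20 beside 0.13 over all genes. Scaling by library totals gave 61 lower and 1 higher, with 41% in place of 52.3% of all called genes on the higher side. Without cumulus 0 h replicate 1 and cumulus 4 h replicate 3, 1 member was lower and 6 were higher and the median was 0.03. Leaving out 1 library gave between 4 lower (without cumulus 0 h replicate 1) and 42 lower (without cumulus 4 h replicate 2). Rpl22 was among the lower members, with 270, 288 and 217 CPM at 4 h, against 390, 329 and 321 CPM at 0 h (−0.42 ± 0.10, adjusted p = 0.00285). It kept its call in each fit with 1 library left out and without both libraries (−0.22, adjusted p = 0.0341), but not in the fit of only the groups compared (−0.47, adjusted p = 0.0725), where no member was called lower. Rpl21 (−0.44 ± 0.12) and Rps28 (−0.43 ± 0.12) also kept it with any 1 library left out, but lost it in the fit of only the groups compared and without both libraries. Rpl27 was the 1 member called higher, and it is described with the genes that break the pattern.

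Between 4 h and 12 h, the number of members that fell in cumulus cells depended on the libraries, the scaling and the fit. In cumulus cells at 12 h against 4 h, 39 members were lower and none was higher, beside 31.3% of all genes lower and 29.2% higher, with a median of −0.29. The count was 17 without cumulus 4 h replicate 2, 73 without cumulus 4 h replicate 3 and 72 without both libraries that stand apart. It was 68 under library totals and 25 in the fit of only the groups compared. The steepest falls among the core genes were those of Rps12 (−1.40 ± 0.20, adjusted p = 1.18e-05), Rpl27 (−1.35 ± 0.16, adjusted p = 1.1e-06) and Rpl10 (−0.85 ± 0.15, adjusted p = 7.93e-05).

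In mural cells 53 members rose at 4 h under TMM scaling, while their share of the library was the same within its spread. In mural cells at 4 h against 0 h, 53 of 77 members were higher and none was lower, beside 22.8% of all genes higher and 22.3% lower, with a median of 0.36 beside −0.06 over all genes. Under scaling by library totals 1 member was higher, the core median was 0.03 and the median of all genes was −0.38, with 29.1% in place of 50.6% of all called genes on the higher side. The distance of the core genes from the median of all genes was 0.41 under both scalings, as it must be when scaling shifts all genes alike. The core genes' share of all counts was 1.92% ± 0.0717 at 4 h, against 1.88% ± 0.0221 at 0 h (SD, n = 3). Leaving out 1 library gave 16 to 37 members higher, the fewest without mural 4 h replicate 2. The call was present in 20 of 29 small-subunit and 32 of 46 large-subunit genes.

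Among the named genes, 19 were called higher in mural cells at 4 h and 6 kept the call in each fit with a library left out (Rplp0, Rplp2, Rpl27, Rps12, Rps2 and Rpl24). Rplp0 had 922, 1060 and 927 CPM at 4 h, against 742, 671 and 665 CPM at 0 h, with no overlap (0.49 ± 0.14, adjusted p = 0.00729). Rplp2 had 155, 182 and 152 CPM at 4 h, against 123, 119 and 111 CPM at 0 h (0.47 ± 0.12, adjusted p = 0.00434). Both genes lay above every 0 h library, and mural 4 h replicate 2 was the highest library in each. Rps6 was higher by 0.41 ± 0.13 and Rpl5 by 0.34 ± 0.12, while Rpl11 (0.18 ± 0.13), Rps19 (0.33 ± 0.13, adjusted p = 0.0517), Rpl3 (0.23 ± 0.14) and Rps4x (0.28 ± 0.13) were not called. In the same comparison 6 of 6 erythroid markers were higher, with a sum of 449 to 700 CPM at 4 h, against 87.7 to 145 CPM at 0 h. Of 8 granulosa markers 5 were lower, and none of 15 oocyte markers was called. The part of blood RNA in the change was not tested.

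At 12 h, the number of members called different from 0 h in mural cells depended on the fit. In mural cells at 12 h against 0 h, 10 members were higher and 1 was lower, beside 21.6% of all genes higher and 19% lower, with a median of 0.17 that was 0 under scaling by library totals, where 4 members were higher and 6 lower and 39.9% in place of 53.2% of all called genes were on the higher side. The fit of only these groups gave 32 higher and 1 lower. The 10 higher members were Rpl27, Rps12, Rplp0, Rps14, Rps27l, Rplp2, Rps25, Rpl38, Rpl23 and Rpl24, at log2 changes of 0.31 to 0.58, and the lower one was Rpl10 (−0.39 ± 0.15, adjusted p = 0.042). Rplp0 had 1010, 1020 and 923 CPM at 12 h, against 742, 671 and 665 CPM at 0 h, with no overlap (0.51 ± 0.14, adjusted p = 0.00581). Of the named ones, Rplp0, Rps27l and Rpl27 kept their calls with any 1 library left out. In mural cells at 12 h against 4 h, none was higher and 4 were lower (Rpl27, Rpl10, Rpl41 and Rpl37), beside 18.3% of all genes higher and 16.1% lower, with 66.8% in place of 53.2% of all called genes on the higher side under library totals. The fit of only these groups gave 29 lower. Rpl27 and Rpl10 kept that call with any 1 library left out, and Rpl41 (−0.34 ± 0.13, adjusted p = 0.0499) lost it in all 6 such fits.

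The changes themselves differed between the cell types, by a test of the cumulus change minus the mural change in the same fit. At 12 h against 0 h, 66 of 77 members had a lower change in cumulus than in mural cells and none had a higher one, beside 20% of all genes lower and 20.1% higher, with a median difference of −0.67. Leaving out 1 library gave 55 to 70, and leaving out both that stand apart gave 70. The largest differences among core genes were those of Rps12 (−1.51 ± 0.28, adjusted p = 0.000385), Rpl27 (−1.19 ± 0.22, adjusted p = 0.00036), Rpl36 (−1.10 ± 0.17) and Rpl21 (−1.05 ± 0.17). Members with no such call were Rpl7, Rpl31, Rps27, Rps9, Rps3, Rpl4, Rpl23a, Rpl15, Rps2, Rpl10 and Rps4x. At 4 h against 0 h, 45 members had a lower change in cumulus than in mural cells and none had a higher one, beside 7.26% of all genes lower and 6.78% higher, with a median of −0.57. Under library totals that count was 30, with 69.3% in place of 48.3% of all called genes on the higher side. It was 24, with 1 member higher, without both libraries that stand apart, 3 in the fit of only the groups compared, 11 without mural 0 h replicate 2 and 71 without cumulus 4 h replicate 2. Rps28 (−0.79 ± 0.17, adjusted p = 0.00406) and Rpl24 (−0.74 ± 0.17, adjusted p = 0.00745) were among the members that differed most at 4 h and kept the call with any 1 library left out.

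The members kept nearly fixed proportions to each other, apart from a few genes. With each gene set against the median of the 75 core members in the same library, the 6 group means spanned a median of 0.33 on the log2 scale, and 66 of 75 genes spanned under 0.5. Rpl27, Rpl10, Rps12 and Rps27 spanned 1 or more.

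Rpl27, a large-subunit protein (chr11:101442298-101445529, plus strand, GRCm38), peaked at 4 h in both cell types. In cumulus cells it had 39, 27.3 and 29.3 CPM at 0 h, 56.0, 61.7 and 42.4 CPM at 4 h, and 22.3, 18.1 and 22.5 CPM at 12 h. In mural cells it had 17.0, 19.8 and 14.7 CPM at 0 h, 36.4, 39.7 and 39.8 CPM at 4 h, and 26.3, 24.3 and 26.5 CPM at 12 h. The 4 h libraries lay above the others of their cell type with no overlap, including the libraries that stand apart. The 4 h change was 0.74 ± 0.15 in cumulus cells (adjusted p = 0.000652) and 1.17 ± 0.16 in mural cells (adjusted p = 7.76e-06), and the changes did not differ between the cell types beyond the threshold (−0.43 ± 0.22, adjusted p = 0.196). In mural cells Rpl27 was called higher at 4 h also under scaling by library totals.

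Rps12 (chr10:23785183-23787275, minus strand) was lower at 12 h than at 0 h in cumulus cells and higher at 4 h and 12 h than at 0 h in mural cells. It had 33.4, 24.9 and 19.9 CPM at 0 h, 35.6, 45.9 and 25.8 CPM at 4 h, and 13.5, 14.4 and 12.8 CPM at 12 h in cumulus cells. In mural cells it had 13.9, 16.8 and 11.9 CPM at 0 h, 21.5, 27.2 and 22.8 CPM at 4 h, and 22.1, 20.1 and 21.1 CPM at 12 h. In mural cells the 4 h libraries lay above the 0 h ones (0.75 ± 0.20, adjusted p = 0.00483), and in cumulus cells the 4 h and 0 h groups overlapped (0.46 ± 0.20, adjusted p = 0.0637, and 0.86 with adjusted p = 0.000156 without both libraries that stand apart). Rps27 (chr3:90212522-90213651, minus strand), a zinc-binding small-subunit protein, had only 1.97 to 8.46 CPM over all libraries. In mural cells it had 5.46, 6.44 and 3.79 CPM at 4 h, against 3.14, 3.30 and 1.97 CPM at 0 h (0.90 ± 0.28, adjusted p = 0.0129). Rps27 did not keep that call in each fit with a library left out. Under scaling by library totals, neither Rps27 nor Rps12 was called higher in mural cells at 4 h.

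Rpl10 lay farther below the other members in cumulus than in mural cells. Its mean log2 distance from the core median was −3.20, −2.69 and −3.33 in cumulus cells at 0, 4 and 12 h, and −1.92, −2.09 and −2.43 in mural cells. It had 38.8, 33.3 and 35.6 CPM at 12 h, against 68.6, 48.6 and 48.7 CPM at 0 h in cumulus cells (−0.62 ± 0.15, adjusted p = 0.00121). These 4 genes share much of their sequence with other annotated genes, Rps12 with 25, Rpl10 with 15, Rpl27 with 11 and Rps27 with 9, and whether reads were divided with those copies was not tested. Over all core members, the median change of the 49 genes that shared at least 50% was 1.27 in cumulus against mural cells at 0 h, beside 1.23 in those that shared under 10%.

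**Figure D4:**
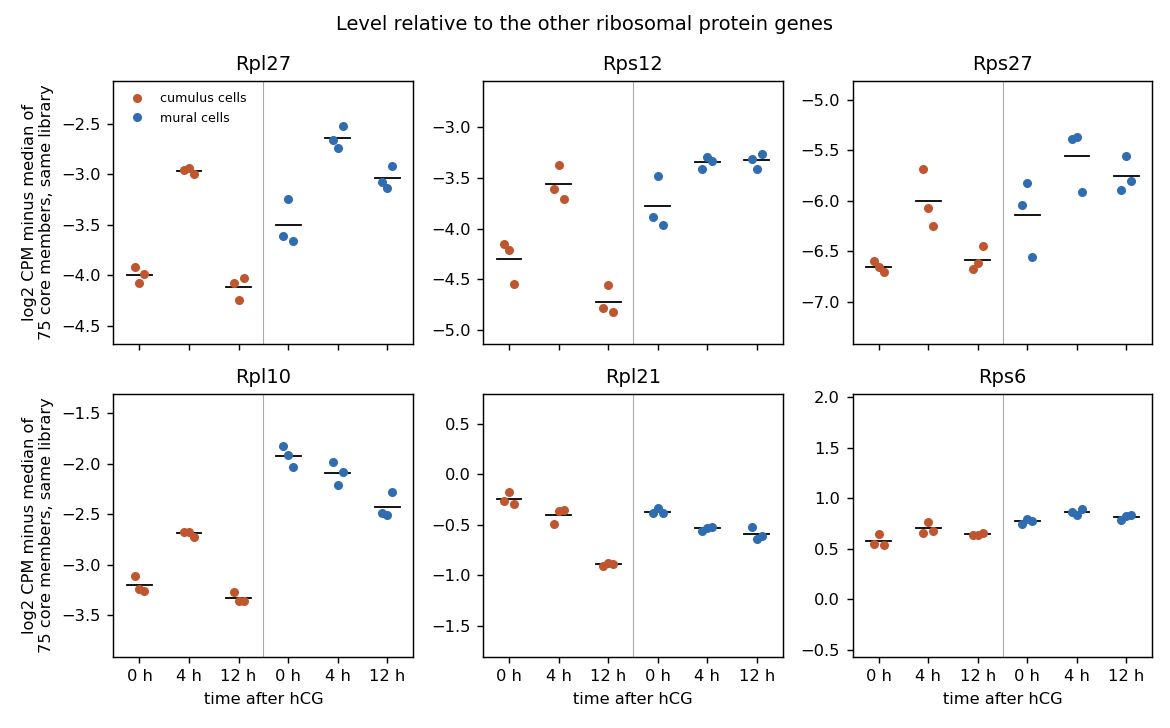
Level of 6 genes relative to the ribosome's other proteins: log2 CPM minus the median of the 75 core members in the same library (vertical axis), by time after hCG, with cumulus cells left of mural cells and a point for each library. Rpl27 is highest at 4 h in both cell types, and Rpl10 lies lower in cumulus than in mural libraries at each time.

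The 4 paralogs did not behave alike. Rps27l, a close relative of Rps27 that is induced by p53 in mouse and human cells (chr9:66946086-66949516, plus strand), had 100, 86.7 and 83.9 CPM at 0 h, 87.0, 99.1 and 78.6 CPM at 4 h, and 74.8, 68.0 and 72.9 CPM at 12 h in cumulus cells. In mural cells it had 36.7, 37.7 and 31.0 CPM at 0 h, 44.0, 46.0 and 41.2 CPM at 4 h, and 47.5, 51.5 and 45.7 CPM at 12 h. It was thus higher in cumulus than in mural cells at each time (1.36 ± 0.11 at 0 h), lower at 12 h than at 0 h in cumulus cells (−0.33 ± 0.10) and higher at 12 h than at 0 h in mural cells (0.46 ± 0.11).

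Rpl39l, a relative of the exit-tunnel protein Rpl39 known from male germ cells (chr16:10170226-10174911, plus strand), differed in course from the core genes. It had 38, 91 and 179 counts in cumulus cells at 0 h, 156, 64 and 482 counts at 4 h, and 0 counts in each library at 12 h. In mural cells it had 5, 10 and 36 counts at 0 h, 10, 6 and 8 counts at 4 h, and 6, 0 and 20 counts at 12 h. The cumulus library with the most, 4 h replicate 3, was also the one with the highest oocyte sum, and the part of oocyte RNA in these counts was not tested. Set against a floor of 3 counts over the group, Rpl39l was at least 83.5-fold lower at 12 h than at 0 h and at least 218-fold lower than at 4 h in cumulus cells, where the floor covers counting error only. These limits rest on single libraries. They were at least 52.5-fold without cumulus 0 h replicate 3 and at least 100-fold without cumulus 4 h replicate 3, and at least 53.6-fold and at least 140-fold with cumulus 12 h replicate 3 left out. It shared no 50-base window with another annotated gene. Rpl3l, the muscle relative of Rpl3, had 74 counts in all 18 libraries together, and Rpl10l, the testis relative of Rpl10, had 48, so that neither could be compared at this depth.

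Ribosomal protein genes outside the naming rule were also higher in cumulus cells. Of 8 such genes, 7 were higher in cumulus than in mural cells at each time, beside 21.5%, 27.6% and 18% of all genes, with medians of 1.14, 0.64 and 0.69 at 0, 4 and 12 h (0.79 at 4 h without both libraries that stand apart), and Fau, whose product carries Rps30, differed by 1.57 ± 0.12 at 0 h. All 8 were higher in mural cells at 4 h than at 0 h, beside 22.8% of all genes (median 0.42, and none of 8 at a median of 0.10 under library totals). In cumulus cells at 12 h 2 of 8 were lower than at 0 h, Fau by 0.42 ± 0.12, with a median of −0.10 that was 0.03 without both libraries that stand apart and −0.34 with 6 lower under library totals. Rpsa of the small subunit had 860, 778 and 882 CPM at 12 h, against 1260, 1030 and 966 CPM at 0 h in cumulus cells, with no overlap (−0.37 ± 0.14, adjusted p = 0.0235). Rack1, a scaffold protein on the small subunit, had 914, 826 and 905 CPM at 12 h, against 994, 828 and 771 CPM at 0 h, and the groups overlapped (0.03 ± 0.14).

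Before hCG most other TOP messengers were higher in cumulus than in mural cells, while their calls in cumulus cells by 12 h were close to the share of all genes. Of 14 listed, 12 were higher in cumulus than in mural cells at 0 h, beside 21.5% of all genes (median 0.61). In cumulus cells at 12 h against 0 h, 4 were higher and 5 were lower, beside 31.2% of all genes higher and 32.9% lower, or 3 and 9 under library totals. Eef2, the translocation factor of elongation, had 2740, 2770 and 2730 CPM at 12 h, against 2400, 1960 and 1810 CPM at 0 h (0.42 ± 0.15, adjusted p = 0.0254, and 0.18 with adjusted p = 0.197 under library totals), and Eif4b, a helper of the Eif4a helicase, was higher by 1.37 ± 0.10. Eef1a1, which delivers transfer RNA, was at 6040, 5940 and 6180 CPM at 12 h, against 5450, 4470 and 4320 CPM at 0 h, with no overlap and with a p that missed the threshold (0.35 ± 0.16, adjusted p = 0.0627). It was 0.11 ± 0.12 under library totals (adjusted p = 0.445) and 0.46 ± 0.12 without both libraries that stand apart (adjusted p = 0.00172). In mural cells Tpt1, translationally controlled tumour protein, was higher by 1.2 ± 0.15 at 4 h and by 1.70 ± 0.16 at 12 h than at 0 h.

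Genes of ribosome assembly rose at 4 h more often than they fell in both cell types, and in cumulus cells most were lower by 12 h. Of 35 biogenesis genes, 16 were higher and 3 lower in cumulus cells at 4 h than at 0 h, beside 25% of all genes higher and 22.8% lower (median 0.23, and 26 higher without both libraries that stand apart). At 12 h against 4 h, 1 was higher and 28 were lower, beside 29.2% and 31.3% of all genes (median −0.80). At 12 h against 0 h 5 were higher and 19 lower, beside 31.2% and 32.9% of all genes (median −0.37), led by Nop56, a core protein of the box C/D particles that guide ribosomal RNA methylation, at −1.87 ± 0.10. In mural cells 27 were higher and 1 lower at 4 h than at 0 h, beside 22.8% and 22.3% of all genes (median 0.51, and 14 higher and 3 lower at a median of 0.18 under library totals). At 12 h against 0 h, 26 were higher and 2 lower in mural cells, beside 21.6% and 19% of all genes (median 0.44). In cumulus against mural cells 28 were higher and none lower at 0 h, beside 21.5% and 25.3% of all genes, and 5 were higher and 15 lower at 12 h, beside 18% and 20.5%. The cumulus minus mural change at 12 h was lower for 26 of 35 and higher for none, beside 20% and 20.1% of all genes (median −0.93).

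Ncl, Npm1 and Rrs1, named from these lists, were lower by 12 h in cumulus cells. At 4 h against 0 h in cumulus cells Rrs1 was called higher (0.72 ± 0.13), and Ncl (0.18 ± 0.11) and Npm1 (0.27 ± 0.12) were not called. Ncl, nucleolin, had 369, 357 and 377 CPM at 12 h, against 878, 790 and 722 CPM at 0 h in cumulus cells (−1.12 ± 0.11, adjusted p = 7.46e-08), and Npm1, nucleophosmin, had 391, 380 and 404 CPM at 12 h, against 961, 819 and 799 CPM at 0 h (−1.13 ± 0.12, adjusted p = 1.67e-07). Rrs1, which helps load the 5S particle, had 36.8, 32.9 and 37.5 CPM at 12 h, against 71.2, 63.6 and 62.8 CPM at 0 h (−0.88 ± 0.14, adjusted p = 2.04e-05). For these 3 genes the 12 h and 0 h groups lay apart. In mural cells Rrs1 was higher at 12 h than at 0 h (0.64 ± 0.14, adjusted p = 0.000897), and Ncl (0.17 ± 0.11) and Npm1 (0.04 ± 0.12) were not called.

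Regulators of ribosome production and of TOP translation moved in several directions. Of 29 genes listed for TOP and mTORC1 control, 16 were higher and 5 lower in cumulus cells at 12 h than at 0 h, beside 31.2% of all genes higher and 32.9% lower (median 0.42, and 12 higher and 9 lower under library totals). Myc, a transcription factor that drives ribosomal protein and assembly genes, had 164, 174 and 160 CPM at 12 h, against 27.4, 29.4 and 35.7 CPM at 0 h in mural cells (2.42 ± 0.20, adjusted p = 2.91e-08). There 10 of 77 members were higher and 1 was lower, beside 21.6% of all genes higher and 19% lower. In cumulus cells Myc had 46.7, 58.2 and 47.3 CPM at 12 h, against 22.9, 27.8 and 25.4 CPM at 0 h (1 ± 0.20, adjusted p = 0.000266). There 67 members were lower and none was higher, beside 32.9% of all genes lower and 31.2% higher. A tie between Myc and the members was not tested. Eif4ebp1, a brake on cap-dependent initiation, had 216, 220 and 231 CPM at 12 h, against 139, 111 and 103 CPM at 0 h in cumulus cells (0.92 ± 0.14, adjusted p = 1.49e-05) and rose by 1.15 ± 0.14 in mural cells. Larp1, which binds the TOP motif, was higher at 12 h than at 0 h in mural cells (0.57 ± 0.12, adjusted p = 0.00126) and was not called in cumulus cells (0 ± 0.12, adjusted p = 0.997, and −0.25 with adjusted p = 0.0474 under library totals). Of 21 initiation factor genes 12 were higher and none lower in cumulus cells at 4 h than at 0 h, beside 25% and 22.8% of all genes (16 and none without both libraries that stand apart). In mural cells 15 were higher and none lower at 4 h than at 0 h, beside 22.8% and 22.3% of all genes (10 and 1 under library totals). Eif4e, the cap-binding factor, was higher at 4 h by 1.24 ± 0.17 in cumulus cells (1.29 without both libraries) and by 1.68 ± 0.17 in mural cells.

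**Figure D5:**
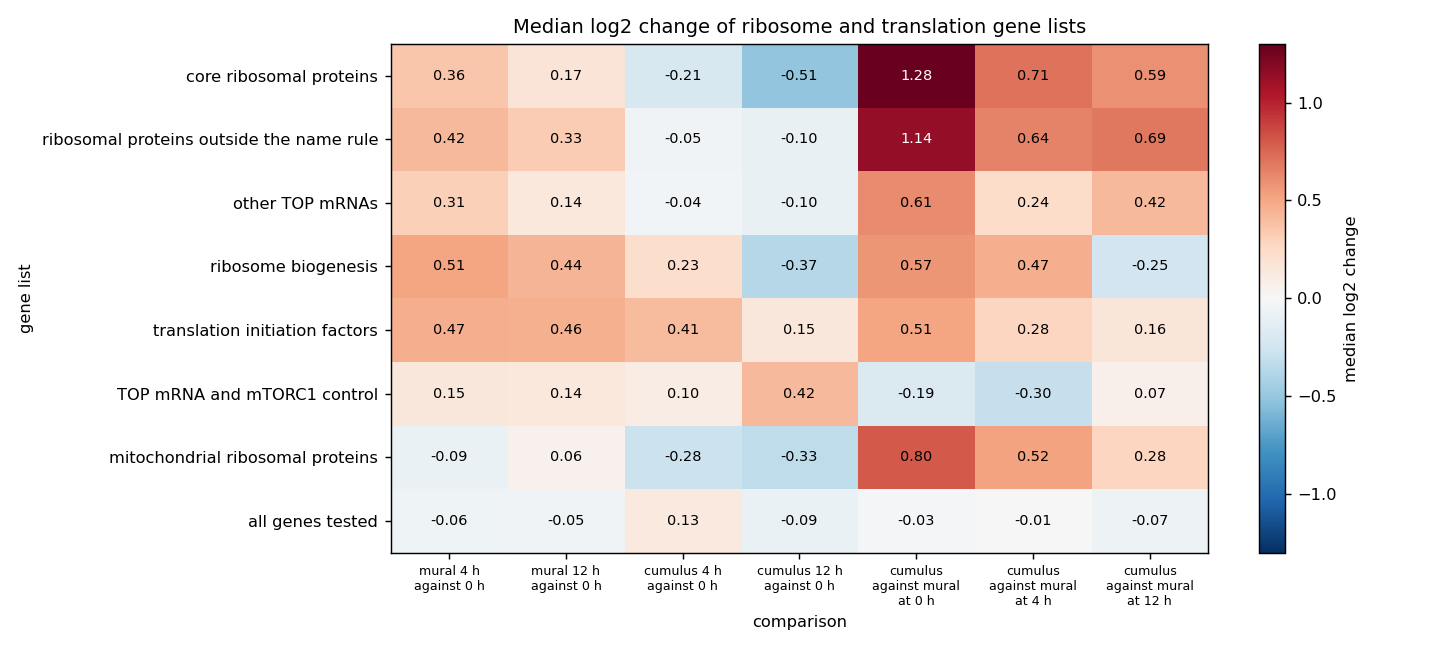
Median log2 change of each ribosome and translation gene list (down the page) in each comparison (across), with the number in a cell giving that median. The core ribosomal protein list and the biogenesis list are below 0 in cumulus cells at 12 h against 0 h and above 0 in mural cells at 4 h against 0 h, the last near 0 for the core genes under scaling by library totals.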

How the data were processed

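Counts were taken as deposited: the authors' table gives unique gene reads per gene name for 18 libraries, with no normalization. Per the labels' protocols, RNA was purified with column kits and made into stranded messenger RNA libraries for an Illumina NovaSeq. Per the series' design text, CLC Genomics Workbench aligned and quantified the reads with its default settings, and the submitters' processing notes name GRCm38. Tool version, annotation and strand handling were not given in the sources used here. All per-sample columns were used.

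Libraries were grouped by title. Genes were filtered with filterByExpr (minimum count 10), scaled by TMM and tested with edgeR 4.0.16 (quasi-likelihood, robust, limma 3.58.1, R 4.3.3) in 1 fit of 18 libraries with a mean for each of 6 groups. P-values were adjusted by Benjamini-Hochberg over 19941 genes, with a threshold of 0.05, and SE is the log2 change divided by the square root of F. The scripts were tested on simulated data. Alternatives were DESeq2 1.42.0, library totals, no filter, TMM without members, fits of only the groups compared, a replicate block, each library left out, and the libraries that stand apart left out together; for the lists of other genes, library totals and the last were added after seeing the data, as were the core share without those libraries and the Rpl39l limits with a library left out. Replicate libraries differed beyond sampling noise (lowest chi-square per degree of freedom 7.93), and unequally between groups. The pairs gave 77.3, 78.6 and 8.53 in cumulus 0 h cells and 38.1, 196 and 260 in cumulus 4 h cells. Those of the other groups gave 7.93 to 37.5. The fit of 18 libraries shares its estimate of spread over all groups.

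The members and lists were chosen with earlier results of these data known. Named genes were the paralogs, a fixed list of members by role, the 3 members with the largest called rise and fall in each comparison, the 3 highest and lowest per kb, a fixed list of related genes, and the gene with the largest called change in each list. The members without a call, and those given by name in counts of 11 or fewer, were named after their values were seen. A few genes that the rule names are not reported here. Transcript length, shared 50-base windows and gene positions come from GENCODE M21 (GRCm38).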

Additional observations from a re-analysis of the deposited data

Results flagged for a closer look

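Several results differed between the cell types, by a test of the cumulus change minus the mural change (quasi-likelihood F test of edgeR, Benjamini-Hochberg adjusted). At 12 h against 0 h this difference was called for 66 members, beside 20% of all genes lower and 20.1% higher. All 66 members had the lower change in cumulus cells. Among them Rpl39l had a fitted difference of −8.76, which rests on 0 counts in every cumulus library at 12 h and is no bound, Rps12 had −1.51 and Rpl27 had −1.19. At 4 h against 0 h Rps28 had −0.79 and Rpl24 had −0.74. The difference was called there for 45 members, all lower, beside 7.26% of all genes lower and 6.78% higher. That count was 3 in the fit of only the groups compared, 11 without mural 0 h replicate 2, and 24 lower with 1 higher without both libraries that stand apart. The members in these counts share the same 0 h libraries between the times.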

How the results depend on the processing

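Cumulus against mural counts at 0 h and 4 h and the falls in cumulus cells at 12 h against 0 h stayed within 1.5 times of the reported count under each alternative run. Under library totals, higher calls in mural cells numbered 1 at 4 h against 0 h, 4 at 12 h against 0 h and 1 at 12 h against 4 h, and lower calls numbered 6 at 12 h against 0 h and 2 at 12 h against 4 h; in cumulus cells lower calls numbered 61 at 4 h against 0 h and 68 at 12 h against 4 h. Under that scaling the mural 4 h against 0 h changes of Rplp1 (−0.01), Rps27l (−0.01) and Rpl35 (−0.03) turned sign, and the mural 12 h against 0 h median was 0. DESeq2 gave 16 higher and 9 lower calls in mural cells at 12 h (against 0 h and against 4 h) and 2 higher in cumulus cells at 4 h. With no filter, lower calls were 0 and 2 in mural cells at 12 h (against 0 h and against 4 h) and 1 in cumulus against mural cells at 12 h. Fits of only the groups compared, with fewer samples, gave 32 higher in mural cells at 12 h against 0 h, 29 lower at 12 h against 4 h, 0 lower in cumulus cells at 4 h against 0 h, 25 lower at 12 h against 4 h, and 3 lower for the 4 h difference. Without both libraries that stand apart, cumulus cells at 4 h against 0 h had 6 higher and 1 lower (median 0.03), 72 were lower at 12 h against 4 h, and the 4 h difference had 1 higher and 24 lower. The core share was 4.84%, 1.98% and 2.04% outside mitochondrially encoded genes in cumulus 0 h, mural 0 h and mural 4 h cells, and 1.82% in mural 0 h cells over members with no -ps entry in the table. The cause of these moves was not tested.

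With 1 library left out, higher calls were 16 to 37 in mural cells at 4 h, 4 to 9 in mural cells at 12 h and 1 to 4 in cumulus cells at 4 h, each against 0 h. Lower calls were 0 to 1 in mural cells at 12 h against 0 h, 2 to 3 at 12 h against 4 h, 4 to 42 in cumulus cells at 4 h against 0 h, 17 to 73 at 12 h against 4 h, 0 to 2 in cumulus against mural cells at 12 h, and 11 to 71 for the 4 h difference. The median change in cumulus cells at 4 h against 0 h ran from −0.33 without cumulus 4 h replicate 2 to 0.03 without both libraries that stand apart.

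Deviations of same-numbered libraries had correlations of −0.29 to 0.40, with 9 of 45 pairs over 0.1. Between mural 0 h and cumulus 0 h cells they were 0.37, −0.06 and 0.27 for replicates 1, 2 and 3. Differently numbered libraries were not set beside them, so whether the numbers mark pairs is not settled. The main fit did not take them as pairs. With a replicate block, 2 members were higher in cumulus cells at 4 h, 60 in mural cells at 4 h, and 69 were lower in cumulus cells at 12 h, each against 0 h.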

Other observations

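Mitochondrial ribosomal protein genes, which serve the separate ribosome inside mitochondria, were also higher in cumulus than in mural cells: 68 of 77 tested were higher and none was lower at 0 h, beside 21.5% of all genes higher and 25.3% lower (median log2 difference 0.80), with Mrpl54 at 1.57 ± 0.12, and 38 were higher and 2 lower at 12 h, beside 18% and 20.5% of all genes (median 0.28, and 27 and 4 at a median of 0.15 under library totals). In cumulus cells 3 were higher and 41 lower at 4 h than at 0 h, beside 25% and 22.8% of all genes (median −0.28, and 8 higher and 35 lower without both libraries that stand apart), and 4 were higher and 46 lower at 12 h than at 0 h, beside 31.2% and 32.9% of all genes (median −0.33). In mural cells at 4 h against 0 h 9 were higher and 23 lower, beside 22.8% and 22.3% of all genes (median −0.09, and 4 and 48 under library totals). The cumulus minus mural change at 12 h was lower for 41 of 77 and higher for none, beside 20% and 20.1% of all genes, by edgeR's quasi-likelihood test.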
